A study of Homo sapiens with 12 samples.

Results

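The epidermal growth factor receptor (EGFR) family was examined through 9 genes in MDA-MB-231, an established human line from a metastatic breast cancer that lacks hormone receptors and ERBB2 amplification. The 9 genes were the receptors EGFR, ERBB2 and ERBB3, the ligands HBEGF, AREG, EREG and TGFA, and the feedback inhibitors LRIG1 and ERRFI1. They were chosen by symbol, and all 9 were found among the 24641 rows of the count table and held enough reads to be among the 15648 genes tested.

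Polyadenylated RNA was sequenced from 12 libraries in 4 groups of 3. The normoxia shControl group carried a control short hairpin RNA and was labelled as wild type, and the normoxia shRIPOR3 group carried a hairpin against RIPOR3. The hypoxia shControl and hypoxia shRIPOR3 groups were the same lines after 24 hours at 1% O2. All groups shared DMEM with 10% fetal bovine serum and 1% penicillin-streptomycin, 5% CO2 and 37 °C, so the growth factors of serum were present throughout. The oxygen level of normoxia is not given in the sources used here. The labels tell apart a single RIPOR3 hairpin line, so loss of RIPOR3 and other effects of that hairpin or of deriving that line cannot be told apart. The study's question was the role of RIPOR3 in tumour growth and metastasis.

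The libraries were deeper in hypoxia, at 31781324 to 52526813 counts each, against 14750734 to 30032858 in normoxia. Replicates are not said to come from separate cultures, and the p-values therefore describe the spread between libraries, which can be technical. RIPOR3 had 3 to 7 counts a library in normoxia shControl, 0 to 1 in normoxia shRIPOR3, 18 to 33 in hypoxia shControl and 3 to 11 in hypoxia shRIPOR3. Of the 7 mesenchymal and basal-like markers in the table, all were detected, with a summed level of 6246 to 8332 CPM (counts scaled to a common library size after TMM normalisation). Most of that sum was MSN, with group means of 4609 to 6058 CPM. The 8 luminal markers had a summed level of 70.49 to 100.8 CPM, most of it KRT19, with group means of 65.04 to 86.23 CPM. Of these 8, 4 had a mean over the 12 libraries under 1 CPM, among them the oestrogen receptor gene ESR1, and so had the 3 blood cell markers. KRT19, EPCAM, GATA3 and CDH1 had means above 1 CPM. The 4 endothelial markers, of which VWF had a mean under 1 CPM, had a summed level of 13.49 to 14.8 CPM in normoxia shControl, 8.459 to 10.36 in normoxia shRIPOR3, 21.73 to 23.24 in hypoxia shControl and 12.8 to 13.6 in hypoxia shRIPOR3. These sums were highest in hypoxia shControl and lowest in normoxia shRIPOR3, and their part in the results below was not tested. The genes in the sums differed in pattern. KDR had means of 6.751 CPM in normoxia shControl, 6.702 in normoxia shRIPOR3, 8.967 in hypoxia shControl and 9.274 in hypoxia shRIPOR3. In the same order PECAM1 had 5.359, 1.227, 4.841 and 1.311 CPM, and CDH5 2.193, 1.321, 8.283 and 2.411 CPM. In bulk RNA, fewer cells of a type and less RNA per cell cannot be told apart.

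EGFR family receptors are transmembrane tyrosine kinases that pair with each other when a ligand binds. Their ligands are made as membrane-bound precursors that proteases of the ADAM family cut free, and the activated receptors feed the RAS-ERK and PI3K-AKT pathways. ERK activity in turn raises transcription of several ligands and of inhibitors such as ERRFI1, which closes a loop around the receptor. Triple-negative breast cancer cells often carry abundant EGFR.

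The genes lie apart in the genome except for a pair of ligands. On GRCh38 with GENCODE 29 models, EGFR is at chr7:55019021-55211628 (plus strand), ERBB2 at chr17:39687914-39730426 (plus), ERBB3 at chr12:56076799-56103505 (plus), HBEGF at chr5:140332843-140346631 (minus), TGFA at chr2:70447280-70554193 (minus), LRIG1 at chr3:66378797-66501263 (minus) and ERRFI1 at chr1:8004404-8026308 (minus). EREG (chr4:74365143-74388751, plus) ends 56.4 kb before AREG begins (chr4:74445134-74455009, plus).

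The stretches before the start of 3 genes are shown because EGFR and ERRFI1 had the greatest increases of the 9 genes in hypoxia and AREG was lower in it. Sequences come from RefSeq promoter windows on GRCh38.p14, which run from 250 bases before to 50 bases after a gene's start and matched 8 of the 9 genes. ERBB3 had no window in the table used. The table held 2 windows for EGFR, 2 for TGFA and 4 for LRIG1, of which the most upstream was used, and the others were not searched. The EGFR and ERRFI1 stretches are the 250 bases before the start, and the AREG stretch runs from 150 to 3 bases before it. Capitals mark TATATATA, which holds 2 overlapping matches to TATATA, in ERRFI1, and GCGTG, TGACGTCA and TATAAA, in that order, in AREG.
EGFR, chr7:55018767-55019016, plus strand: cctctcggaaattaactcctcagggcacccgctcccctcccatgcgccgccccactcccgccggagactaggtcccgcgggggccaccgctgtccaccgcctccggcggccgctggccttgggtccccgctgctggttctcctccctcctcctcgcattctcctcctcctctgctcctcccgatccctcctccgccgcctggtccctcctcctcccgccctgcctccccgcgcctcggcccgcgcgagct
ERRFI1, chr1:8026310-8026559, minus strand: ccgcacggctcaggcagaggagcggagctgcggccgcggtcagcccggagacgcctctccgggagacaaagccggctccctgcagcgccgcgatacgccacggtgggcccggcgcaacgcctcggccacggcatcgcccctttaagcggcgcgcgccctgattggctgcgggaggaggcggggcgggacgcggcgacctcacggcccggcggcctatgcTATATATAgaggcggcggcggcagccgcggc
AREG, chr4:74444986-74445133, plus strand: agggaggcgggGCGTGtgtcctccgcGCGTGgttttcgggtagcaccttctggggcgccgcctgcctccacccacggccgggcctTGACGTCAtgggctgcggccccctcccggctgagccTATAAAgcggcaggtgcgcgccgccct

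Each window was searched on both strands for ACGTG and GCGTG, the core letters that hypoxia-inducible factors read, for CACGTG, which contains ACGTG, for the AP-1 letters TGANTCA, for the cyclic AMP response element TGACGTCA, and for the TATA box letters TATAAA and TATATA. The EGFR window used held no match to any of them, and neither did the TGFA window used. The ERRFI1 window held TATATA and no ACGTG or GCGTG. The AREG window held 2 GCGTG, 1 TGACGTCA and 1 TATAAA. The LRIG1 window held 1 ACGTG and 2 GCGTG, the HBEGF window 1 GCGTG, the EREG window 1 ACGTG, 1 GCGTG and 1 TATAAA, and the ERBB2 window 1 TGANTCA. Of 27305 windows, the most upstream of each gene, 48.4% held ACGTG or GCGTG, 1.97% TGACGTCA, 7.72% TGANTCA and 14.3% TATAAA or TATATA. With a share of that size, ACGTG or GCGTG in a window sets none of these genes apart. A match is a description of letters and no evidence of binding, and sites outside the windows were not searched.

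Compared per kilobase of exon, the receptor RNA was mostly EGFR and the ligand RNA mostly HBEGF. Levels between genes are given as RPKM, TMM-normalised CPM divided by the length in kilobases of all annotated exons of a gene merged. Shares and ratios between genes depend on these lengths, and the SDs do not cover that choice. Lengths of single transcripts were not tried. In normoxia shControl, EGFR made up 80.55% ± 0.736 (SD, n = 3) of the summed RPKM of the 3 receptors, ERBB2 18.46% ± 0.523 and ERBB3 0.985% ± 0.254. In hypoxia shControl the EGFR share was 91.75% ± 0.413 and in hypoxia shRIPOR3 88.61% ± 0.263. HBEGF held 76.93% ± 1.99 of the ligand RNA in normoxia shControl and 82.65% ± 0.259 in hypoxia shRIPOR3, and AREG held 21.1% ± 1.77 and 15.44% ± 0.135. TGFA contributed 1.75% ± 0.366 in normoxia shControl and 3.48% ± 0.429 in hypoxia shControl, while EREG stayed between 0.142% and 0.384% in all libraries.

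The total of the 3 receptors was higher in hypoxia in both lines, and the total of the 4 chosen ligands was lower in shRIPOR3 at either oxygen level. Summed receptor RPKM was 20.62 ± 0.306 in normoxia shControl, 19.7 ± 0.448 in normoxia shRIPOR3, 53.87 ± 0.868 in hypoxia shControl and 36.78 ± 0.434 in hypoxia shRIPOR3 (mean ± SD, n = 3). Summed ligand RPKM was 48.06 ± 1.1, 31.15 ± 1.13, 51.04 ± 0.818 and 29.83 ± 0.587 in the same order. No receptor sums of different groups overlapped. For the ligands, the highest sum in either shRIPOR3 group, 32.29, lay below the lowest in either shControl group, 46.79, and the shRIPOR3 groups overlapped with each other.

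**Figure D1:**
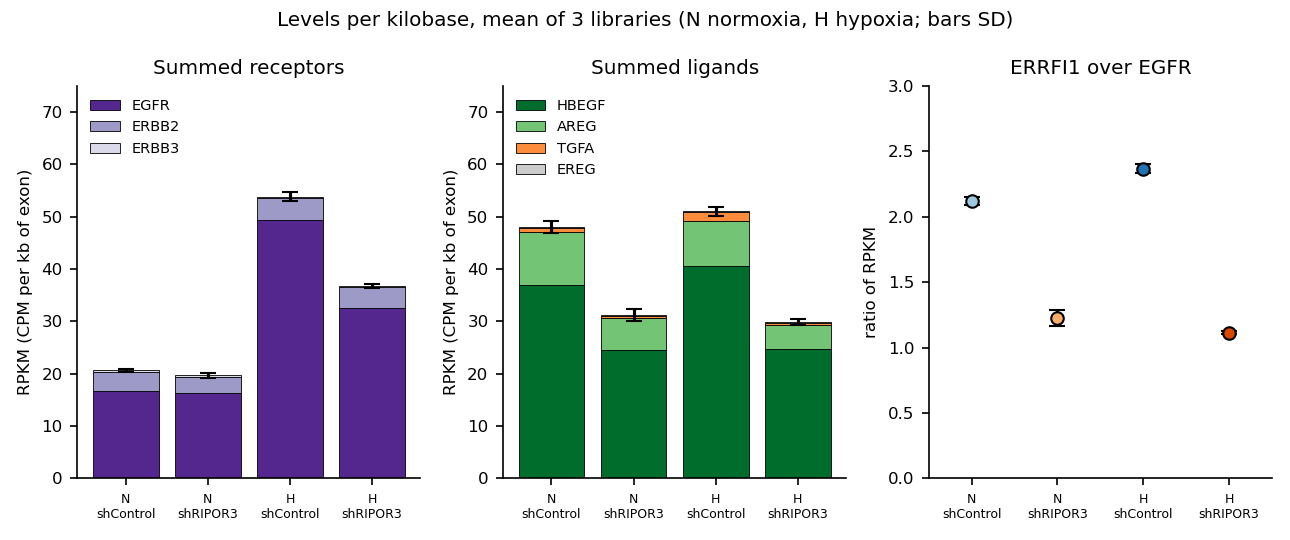
Summed level per kilobase (RPKM, linear axis from 0) of the 3 receptors and of the 4 ligands in the 4 groups, with stacked bars for the mean of each gene over 3 libraries and error bars for the SD of the sum, and in the last panel the mean and SD of the ratio of ERRFI1 to EGFR RPKM. Receptor bars stand highest in hypoxia shControl (53.87), ligand bars are lower in both shRIPOR3 groups (31.15 and 29.83), and the mean ERRFI1 to EGFR ratio is 1.23 and 1.11 in the shRIPOR3 groups.

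EGFR, the receptor for HBEGF, AREG, EREG and TGFA, was raised by hypoxia in both lines and was lower in shRIPOR3 in hypoxia. Its level was 203.1, 211.8 and 209.1 CPM in normoxia shControl and 208.6, 196.8 and 208.7 CPM in normoxia shRIPOR3, which overlap. In hypoxia it was 613.4, 633.4 and 609.8 CPM in shControl and 412.4, 409.7 and 402 CPM in shRIPOR3, with every shControl library above every shRIPOR3 library. Hypoxia raised EGFR 2.98-fold in shControl (log2 fold change 1.57 ± 0.0373, ± SE here and for later log2 values, adjusted p = 1.33e-20) and 1.99-fold in shRIPOR3 (1.00 ± 0.037, adjusted p = 2.22e-16). Adjusted p-values are from edgeR's quasi-likelihood test over all 15648 genes, with a threshold of 0.05. In hypoxia EGFR was 1.52-fold lower in shRIPOR3 (log2 -0.60 ± 0.0357, adjusted p = 5.36e-13). In normoxia the difference was -0.02 ± 0.0379 (adjusted p = 0.667), with a 95% confidence interval of -0.1 to 0.0562.

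ERBB2, the receptor that pairs with the others without a ligand of its own, moved by much less. Its level was 39.16, 38.3 and 40.38 CPM in normoxia shControl, 30.32, 33.33 and 32.68 in normoxia shRIPOR3, 44.31, 41.02 and 42.43 in hypoxia shControl and 41.09, 39.7 and 41.28 in hypoxia shRIPOR3. Normoxia shRIPOR3 stood below the rest, and neighbours among the other 3 groups overlapped. In normoxia ERBB2 was lower in shRIPOR3 (log2 -0.29 ± 0.0497, adjusted p = 4.05e-05), whereas in hypoxia the difference was -0.07 ± 0.0419 (adjusted p = 0.179). Hypoxia raised it in shRIPOR3 (0.34 ± 0.0462, adjusted p = 1.09e-06). In shControl the rise was 0.11 ± 0.0455 (adjusted p = 0.0319), and it failed the threshold in DESeq2 (adjusted p = 0.137), with no filter on low counts (0.0608), without replicate 1 (0.106) or 2 (0.107) of normoxia shControl and without replicate 1 of hypoxia shControl (0.16).

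ERBB3, the kinase-impaired neuregulin receptor, was scarce. It stood at 2.294, 1.403 and 1.796 CPM in normoxia shControl, 2.709, 2.149 and 1.574 in normoxia shRIPOR3, 2.777, 2.681 and 3.041 in hypoxia shControl and 2.378, 2.195 and 2.048 in hypoxia shRIPOR3. Replicates in normoxia were spread widely, and the hypoxia shControl libraries stood above those of hypoxia shRIPOR3. Hypoxia raised ERBB3 in shControl (log2 0.58 ± 0.169, adjusted p = 0.00438), and the difference in shRIPOR3 was 0.11 ± 0.169 (adjusted p = 0.605). In hypoxia it was lower in shRIPOR3 (-0.36 ± 0.139, adjusted p = 0.0286), a call lost in DESeq2 (adjusted p = 0.125), with libraries thinned to one total (0.196), without replicate 1 (0.0538) or 3 (0.113) of hypoxia shControl and without replicate 2 (0.0539) or 3 (0.112) of hypoxia shRIPOR3.

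**Figure D2:**
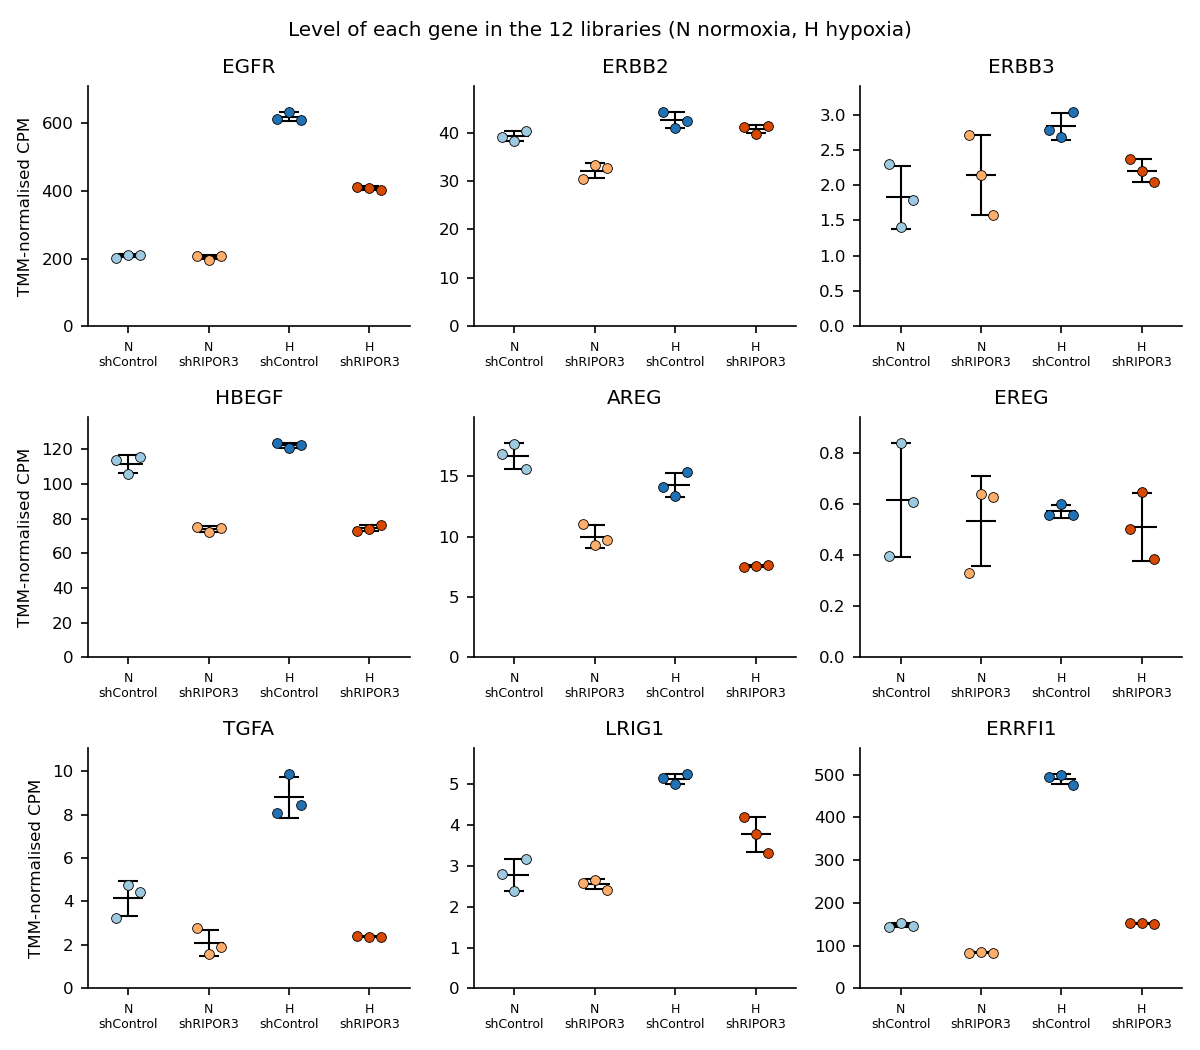
TMM-normalised CPM (linear axes from 0, a separate scale per gene) of the 9 genes in each library, as points by group, with the mean and SD of 3 libraries as lines. EGFR and ERRFI1 stand highest in hypoxia shControl, HBEGF and AREG are lower in both shRIPOR3 groups, and the EREG groups overlap.

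HBEGF, heparin-binding EGF-like growth factor, was lower in shRIPOR3 at either oxygen level and differed little between the oxygen levels. It was at 113.9, 105.5 and 115.4 CPM in normoxia shControl and 123.6, 120.6 and 122.6 CPM in hypoxia shControl. In shRIPOR3 it was at 75.38, 72.34 and 74.73 CPM in normoxia and 73.09, 73.82 and 76.32 CPM in hypoxia. All shRIPOR3 libraries lay below all shControl libraries, and the shRIPOR3 groups overlapped. The log2 fold change of shRIPOR3 against shControl was -0.60 ± 0.0407 in normoxia (adjusted p = 2.08e-11) and -0.72 ± 0.0374 in hypoxia (adjusted p = 4.97e-14). Hypoxia raised HBEGF in shControl by 0.13 ± 0.0381 (adjusted p = 0.00543, and 0.0516 without replicate 2 of normoxia shControl). In shRIPOR3 the difference was 0.0061 ± 0.0399 (adjusted p = 0.91), and it passed the threshold when libraries were scaled by totals alone (0.13, adjusted p = 0.00935).

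AREG, amphiregulin, was the 1 gene of the 9 that fell in hypoxia. Its level was 16.85, 17.68 and 15.56 CPM in normoxia shControl, 14.08, 13.37 and 15.34 in hypoxia shControl, 11.03, 9.283 and 9.692 in normoxia shRIPOR3 and 7.505, 7.588 and 7.681 in hypoxia shRIPOR3. These 4 groups are in descending order, and none overlapped with its neighbour. AREG was lower in shRIPOR3 by a log2 fold change of -0.74 ± 0.0792 in normoxia (adjusted p = 4.21e-08) and -0.91 ± 0.0688 in hypoxia (adjusted p = 4.34e-11). Hypoxia lowered it in shRIPOR3 (-0.38 ± 0.0801, adjusted p = 0.000253, and 0.153 with libraries thinned to one total). The fall in shControl (-0.21 ± 0.0693, adjusted p = 0.00909) did not pass the test with library totals (-0.10, adjusted p = 0.191) or without replicate 2 of hypoxia shControl (-0.17, adjusted p = 0.0539).

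TGFA, transforming growth factor alpha, had the greatest hairpin difference of the 9 genes in both oxygen conditions. It stood at 3.243, 4.77 and 4.455 CPM in normoxia shControl, 2.775, 1.6 and 1.889 in normoxia shRIPOR3, 8.087, 9.879 and 8.425 in hypoxia shControl and 2.415, 2.385 and 2.341 in hypoxia shRIPOR3. Every hypoxia shControl library held more than any other library, and the shRIPOR3 groups overlapped. TGFA was 2.03-fold lower in shRIPOR3 in normoxia (log2 -1.02 ± 0.179, adjusted p = 4.74e-05) and 3.68-fold lower in hypoxia (-1.88 ± 0.118, adjusted p = 1.56e-12). In hypoxia 0.933% of all genes tested had a larger difference. Hypoxia raised TGFA in shControl (1.10 ± 0.126, adjusted p = 4.39e-08). In shRIPOR3 the difference was 0.25 ± 0.176 (adjusted p = 0.247), with a 95% confidence interval of -0.118 to 0.61.

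EREG, epiregulin, the neighbour of AREG on chromosome 4, was near the limit of detection, with 5 to 27 counts a library. Its range was 0.3955 to 0.8417 CPM in normoxia shControl, 0.3303 to 0.6402 in normoxia shRIPOR3, 0.5579 to 0.6024 in hypoxia shControl and 0.3841 to 0.6504 in hypoxia shRIPOR3. All groups overlapped, and none of the 4 differences passed the test (adjusted p from 0.53 to 0.955). The standard errors, 0.266 to 0.342 on the log2 scale, leave small changes not detectable at this depth.

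ERRFI1, the cytosolic inhibitor (also known as MIG6) that binds the EGFR kinase domain and is itself induced by receptor signalling, had the greatest increase in hypoxia of the 9 genes in shControl. It was at 143.5, 152.6 and 146.2 CPM in normoxia shControl, 83.64, 85.46 and 82.64 in normoxia shRIPOR3, 493.5, 499.5 and 476.5 in hypoxia shControl and 152.1, 153.3 and 150.5 in hypoxia shRIPOR3. Hypoxia shRIPOR3 overlapped with normoxia shControl, while hypoxia shControl stood above and normoxia shRIPOR3 below all other libraries. Hypoxia raised ERRFI1 3.33-fold in shControl (log2 1.73 ± 0.0366, adjusted p = 1.89e-21) and 1.81-fold in shRIPOR3 (0.86 ± 0.0379, adjusted p = 5.32e-15). It was lower in shRIPOR3 in normoxia (-0.81 ± 0.039, adjusted p = 3.49e-14) and 3.22-fold lower in hypoxia (-1.69 ± 0.0356, adjusted p = 4.56e-21), where 1.35% of all genes had a larger difference.

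Relative to EGFR, ERRFI1 was also lower in shRIPOR3. The ratio of their RPKM was 2.12 ± 0.0321 in normoxia shControl, 2.37 ± 0.0352 in hypoxia shControl, 1.23 ± 0.0624 in normoxia shRIPOR3 and 1.11 ± 0.00965 in hypoxia shRIPOR3 (mean ± SD, n = 3). No groups overlapped. In shControl the ratio was higher in hypoxia, and in shRIPOR3 it was lower in hypoxia.

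LRIG1, a transmembrane protein that promotes degradation of the receptors, was weakly expressed and rose in hypoxia. It stood at 2.808, 2.385 and 3.161 CPM in normoxia shControl, 2.577, 2.652 and 2.414 in normoxia shRIPOR3, 5.164, 5.0 and 5.244 in hypoxia shControl and 4.199, 3.794 and 3.329 in hypoxia shRIPOR3. The normoxia groups overlapped, and the hypoxia groups stood above them and apart from each other. Hypoxia raised LRIG1 by 0.85 ± 0.121 on the log2 scale in shControl (adjusted p = 1.27e-06) and by 0.57 ± 0.127 in shRIPOR3 (adjusted p = 0.000461, and 0.161 with libraries thinned to one total). It was lower in shRIPOR3 in hypoxia (-0.45 ± 0.098, adjusted p = 0.000367), while in normoxia the difference was -0.17 ± 0.15 (adjusted p = 0.375). LRIG1 shares 907 exonic bases with SLC25A26 on the opposite strand, which stood at 8.72 to 13.2 CPM, above LRIG1. The libraries were stranded, but the strand setting of the counting is not given in the sources used here, so LRIG1 values are uncertain. SLC25A26 itself fell in hypoxia (-0.29 ± 0.0849 in shControl and -0.26 ± 0.0839 in shRIPOR3), opposite to LRIG1. ERBB2 shares 571 exonic bases with MIEN1 and 194 with PGAP3, and EGFR shares 186 with EGFR-AS1, all far below the receptor in CPM.

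Read against all genes, most of the called genes among the 9 were higher in hypoxia and all were lower with the hairpin. In shControl hypoxia raised 7 of the 9 genes, lowered AREG and left EREG uncalled, where 64.8% of all genes were called, 32.4% higher and 32.4% lower. Of the 7, ERBB2 and HBEGF rose least, and 83.1% and 81.3% of all genes had a larger change in either direction. In shRIPOR3 hypoxia raised EGFR, ERBB2, LRIG1 and ERRFI1, lowered AREG and left 4 uncalled, where 55.6% of all genes were called, 25.2% higher and 30.4% lower, so the 5 calls of 9 are no more than the background. In normoxia 5 of the 9 were lower and none higher in shRIPOR3 (45.7% of all genes called, 25.1% higher and 20.6% lower). In hypoxia 7 of the 9 were lower and none higher in shRIPOR3 (61.9% called, 30.7% higher and 31.2% lower). The uncalled genes were EREG and ERBB2 in hypoxia, and EGFR, ERBB3, EREG and LRIG1 in normoxia.

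The median log2 fold change of the 9 genes was 0.58 for hypoxia in shControl, 0.25 for hypoxia in shRIPOR3, -0.29 for the hairpin in normoxia and -0.60 for the hairpin in hypoxia. Over all genes tested these medians were 0.0158, -0.0128, 0.0331 and -0.00285. The hypoxia values depend on scaling. When libraries were scaled by their totals alone, the all-gene median moved up by 0.11 in shControl and by 0.123 in shRIPOR3, and 61.6% and 63.4% of the called genes were higher, against 50% and 45.3% with TMM factors. The comparisons share groups, so their values are not independent of each other.

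**Figure D3:**
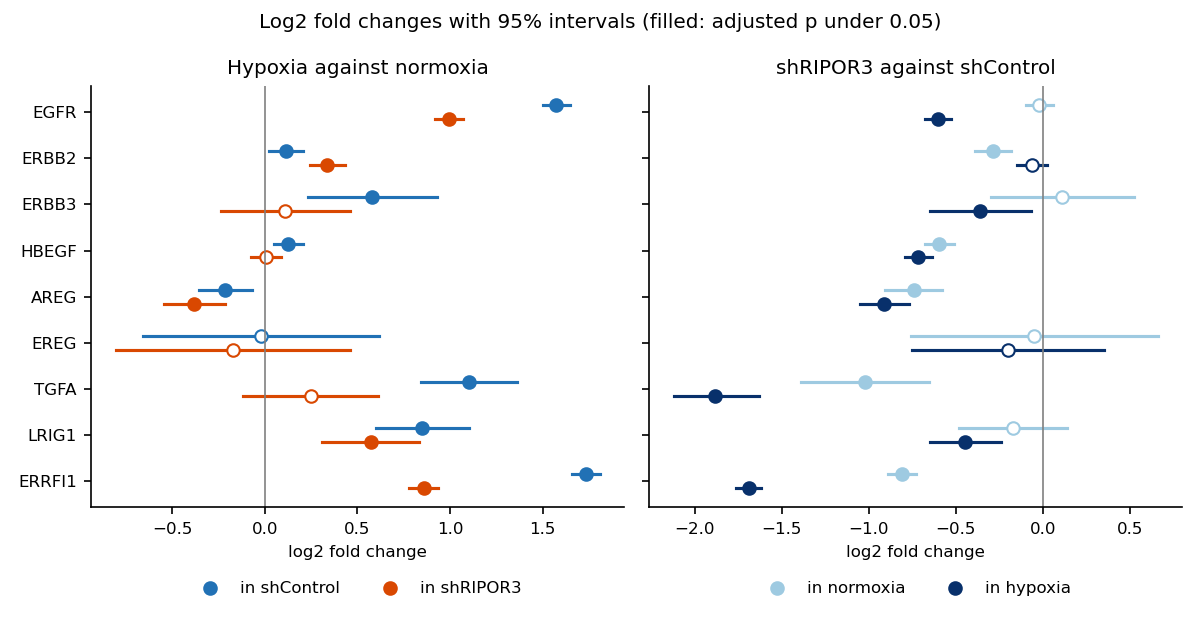
Log2 fold change of the 9 genes with 95% confidence intervals, for hypoxia against normoxia in each line and for shRIPOR3 against shControl in each oxygen condition, filled where the adjusted p is under 0.05. EGFR and ERRFI1 lie farthest to the right for hypoxia, and TGFA and ERRFI1 farthest to the left for the hairpin in hypoxia (-1.88 and -1.69).

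The interaction of hairpin and oxygen, which asks whether the response to hypoxia differed between the lines, was called for 4 of the 9 genes, against 23.2% of all genes (10.9% higher and 12.3% lower). The log2 response in shRIPOR3 minus that in shControl was -0.58 ± 0.052 for EGFR (adjusted p = 2.72e-08), -0.88 ± 0.0523 for ERRFI1 (adjusted p = 3.4e-11) and -0.86 ± 0.223 for TGFA (adjusted p = 0.0067), a smaller response in shRIPOR3. For ERBB2 it was 0.22 ± 0.065 (adjusted p = 0.0148), a larger response. With libraries thinned to one total the TGFA value was -0.84 (adjusted p = 0.0892) and the ERBB2 value 0.12 (adjusted p = 0.511), and without replicate 3 of normoxia shControl the ERBB2 value was 0.20 (adjusted p = 0.0518). ERBB3, HBEGF, AREG, EREG and LRIG1 were not called, with adjusted p from 0.121 to 0.849, although ERBB3 passed without replicate 3 of normoxia shRIPOR3 (-0.69, adjusted p = 0.0483). The median over the 9 genes was -0.28, and over all genes -0.0202.

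**Figure D4:**
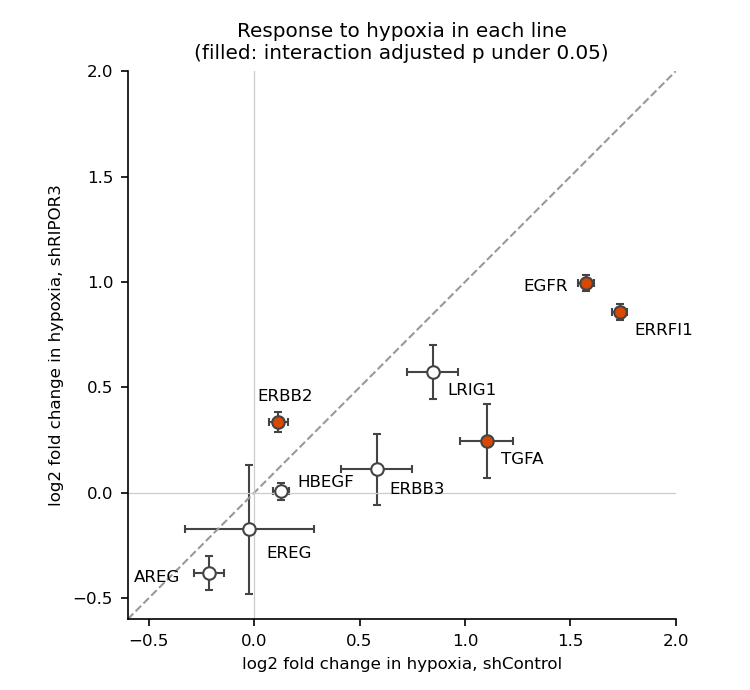
Log2 fold change in hypoxia of the 9 genes in shControl (x axis) and shRIPOR3 (y axis), with SE bars and the line of equal response dashed. EGFR, ERRFI1 and TGFA lie below the line and ERBB2 above it, and these 4 are filled because their interaction passed an adjusted p of 0.05.

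Counts in the gene lists that follow are to be read against the shares of all genes called: 32.4% higher and 32.4% lower for hypoxia in shControl, 25.2% and 30.4% for hypoxia in shRIPOR3, 25.1% and 20.6% for the hairpin in normoxia, and 30.7% and 31.2% for the hairpin in hypoxia. Other family members were few and mostly scarce. Of 8 listed, ERBB4, EPGN and NRG4 had too few reads to be tested, NRG3 was not analysed here and 4 were tested. Epidermal growth factor itself, EGF, fell in hypoxia from 1.495 to 0.939 CPM in shControl (log2 -0.72 ± 0.211) and from 0.893 to 0.536 CPM in shRIPOR3 (-0.74 ± 0.257), and was lower in shRIPOR3 in normoxia (-0.80 ± 0.238) and in hypoxia (-0.82 ± 0.223). NRG2, a neuregulin, fell in hypoxia in shControl (-0.61 ± 0.147) and was lower in shRIPOR3, more so in normoxia (-1.61 ± 0.188) than in hypoxia (-0.72 ± 0.151; interaction 0.89 ± 0.246, adjusted p = 0.0105). NRG1, a ligand of ERBB3 chosen for mention after its values were seen, had group means of 35.22 to 37.63 CPM and passed none of the tests (adjusted p from 0.195 to 0.912).

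Transcripts of the proteins that release the ligands changed unevenly. Of 10 sheddases, iRhoms and the sheddase inhibitor TIMP3, 5 rose and 1 fell in hypoxia in each line, 2 were higher and 4 lower in shRIPOR3 in normoxia, and 4 were higher and 6 lower in hypoxia. Medians were 0.0909, 0.30, -0.19 and -0.37. ADAM17, the main protease for HBEGF, AREG and TGFA, was slightly higher in shRIPOR3 in normoxia (0.27 ± 0.0447, from 62.98 to 76.32 CPM). In hypoxia ADAM17 was higher in shRIPOR3 by 0.11 ± 0.0405. RHBDF1, an iRhom that escorts ADAM17 to the cell surface, rose in hypoxia in shControl (0.80 ± 0.0951) and in shRIPOR3 (0.48 ± 0.112). It was lower in shRIPOR3 in normoxia (-0.64 ± 0.122) and hypoxia (-0.96 ± 0.0838). TIMP3, which inhibits ADAM17, stood at 91.63 CPM in normoxia shControl and 39.36 in normoxia shRIPOR3 (-1.22 ± 0.041), and at 99.35 and 49.24 CPM in hypoxia (-1.01 ± 0.0358). ADAM8 rose in hypoxia in shControl from 0.379 to 1.65 CPM (1.99 ± 0.293) and in shRIPOR3 from 0.2203 to 0.5561 CPM (1.29 ± 0.405).

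Other negative regulators of the receptors gave no common direction. Of 11 tested, 5 rose and 2 fell in hypoxia in shControl, 5 rose and 4 fell in shRIPOR3, 3 were higher and 4 lower in shRIPOR3 in normoxia, and 3 were higher and 5 lower in hypoxia. The medians lay between -0.0793 and 0.102. CBL, the ubiquitin ligase that tags active EGFR for degradation, moved in the same directions as ERRFI1, up in hypoxia in both lines (0.87 ± 0.0578 and 0.63 ± 0.0611) and lower in shRIPOR3 in normoxia (-0.33 ± 0.0675) and hypoxia (-0.58 ± 0.0514). Its relative CBLB went the other way with the hairpin in normoxia (0.50 ± 0.109) and in hypoxia (0.29 ± 0.0777). RNF41, a ligase for ERBB3, fell in hypoxia in shControl (-0.37 ± 0.0474) and in shRIPOR3 (-0.17 ± 0.0447). It was higher in shRIPOR3 in normoxia (0.20 ± 0.0481) and in hypoxia (0.40 ± 0.0438). The phosphatase gene PTPRJ was lower in shRIPOR3 in both conditions (-0.42 ± 0.053 and -0.46 ± 0.0452).

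Of 17 genes that relay the signal from receptor to ERK, 6 rose and 8 fell in hypoxia in shControl, and 4 rose and 6 fell in shRIPOR3. In normoxia 1 was higher and 4 lower in shRIPOR3, and in hypoxia 5 were higher and 9 lower, with medians between -0.13 and -0.0157 in the 4 comparisons. The ERK kinase gene MAP2K1 rose from 108.9 to 211.6 CPM in hypoxia in shControl (0.96 ± 0.0382) and less in shRIPOR3 (0.61 ± 0.038; interaction -0.34 ± 0.0538, adjusted p = 5.39e-05). The RAS exchange factor SOS1 rose in both lines (1.02 ± 0.0569 and 0.71 ± 0.0567). SHC1, the adaptor that docks on the receptor, was lower in shRIPOR3 in normoxia (-0.32 ± 0.0403) and, by less, in hypoxia (-0.13 ± 0.0384). MAPK3, which encodes an ERK, was lower in shRIPOR3 in normoxia (-0.32 ± 0.056) and in hypoxia (-0.50 ± 0.0498).

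Transcripts known to respond to ERK were mostly higher in hypoxia, went both ways with the hairpin in normoxia and were mostly lower with it in hypoxia. Of 16 tested, 11 rose and 3 fell in hypoxia in shControl (median 0.59), and 13 rose and 2 fell in shRIPOR3 (median 0.33). In normoxia 6 were higher and 9 lower in shRIPOR3 (median -0.15), and in hypoxia 3 were higher and 10 lower (median -0.21). DUSP6, an ERK phosphatase induced by ERK itself, rose in hypoxia from 20.82 to 45.11 CPM in shControl (1.13 ± 0.0644) and less in shRIPOR3 (0.55 ± 0.0682). It was lower in shRIPOR3 in normoxia (-0.21 ± 0.0765) and in hypoxia (-0.80 ± 0.0562), with an interaction of -0.58 ± 0.0951 (adjusted p = 8.48e-05). DUSP4 rose in both lines (0.80 ± 0.0349 and 0.60 ± 0.0352), and SPRED1, a RAS-ERK inhibitor, rose by 1.05 ± 0.0543 and 0.51 ± 0.055. SPRY1, another feedback inhibitor, was lower in shRIPOR3 in normoxia (-0.67 ± 0.0926) and hypoxia (-0.86 ± 0.0637). The transcription factor genes FOSL1 (0.23 ± 0.0408 in normoxia and 0.52 ± 0.0405 in hypoxia) and EGR1 (0.89 ± 0.128 and 0.47 ± 0.0848) were higher in shRIPOR3, opposite to the ligands.

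For genes whose group means spanned at least 1 on the log2 CPM scale, the 2 genes with the most similar levels over the 12 libraries were found by the root-mean-square difference of log2 CPM after each gene's mean was subtracted. For EGFR these were ZNF395 (0.0478) and the glucose transporter gene SLC2A3 (0.076). ZNF395 stood at 23.95 ± 0.514, 23.17 ± 1.37, 68.43 ± 0.592 and 46.21 ± 1.16 CPM in normoxia shControl, normoxia shRIPOR3, hypoxia shControl and hypoxia shRIPOR3. For ERRFI1 they were PLOD2 (0.0608), a collagen lysyl hydroxylase, and the mucin gene MUC1 (0.103), with PLOD2 at 69.92 ± 0.747, 40.4 ± 1.41, 216.2 ± 5.21 and 72.76 ± 1.65 CPM in that order. For AREG they were NEXN (0.0602) and TMEM71 (0.0746), and for TGFA CHST15 (0.189) and the plasma membrane calcium pump gene ATP2B4 (0.236). The likeness is one of levels over 12 libraries and was not tested.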

How the data were processed

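The authors deposited raw read counts for 24641 gene symbols, a column for each library. Per the submitters' processing notes, fastp 0.23.4, STAR 2.5.3a, featureCounts and GRCh38 were used, with no order given. The annotation and the strand setting of the counting are not stated there or in the labels. Per the labels' protocols, 2 µg of RNA went into each stranded mRNA library.

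After edgeR's filterByExpr, all 12 libraries entered one model with a coefficient for each group and TMM factors of 0.9517 to 1.048 (edgeR 4.0.16 under R 4.3.3). Differences were tested by the quasi-likelihood F-test, with Benjamini-Hochberg adjustment over 15648 genes and a threshold of 0.05. The biological coefficient of variation was 3.74%. Replicates differed by more than sampling noise (chi-square per degree of freedom 2.65 to 6.18). The fit was also run on counts simulated from its own estimates of spread, with changes planted in hypoxia shRIPOR3. Such a run checks the code and cannot check whether the model holds for these replicates. Exon lengths came from GENCODE 29, and promoter windows from RefSeq. The 9 genes, the gene lists and the alternatives were chosen with earlier results of these data known. Besides the 9 genes and RIPOR3, named genes are up to 3 per list and comparison with the smallest p among those called, and 2 of most similar level, at 5 CPM or more, for each of the 9 that spans 1 on the log2 scale. The text gives a selection of them. Alternatives were DESeq2 1.42.0, other scaling, other filters, a stricter threshold of 0.01, a replicate block, a fit of the compared groups alone, thinning to the shallowest total and leaving out each library. Python 3.11.15 with pandas 2.3.3 and matplotlib 3.10.9 served for sequences and figures.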

Additional observations from a re-analysis of the deposited data

Results flagged for a closer look

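The response to hypoxia differed between the shControl and shRIPOR3 lines for 4 of the 9 genes, by the interaction term of edgeR's quasi-likelihood test adjusted over all genes. Of all genes tested 23.2% were called for it. With libraries thinned to one total, the calls of TGFA (adjusted p = 0.0892) and ERBB2 (adjusted p = 0.511) were lost. The log2 response in shRIPOR3 minus that in shControl was -0.58 for EGFR, -0.88 for ERRFI1, -0.86 for TGFA and 0.22 for ERBB2. Every hypoxia shControl library stood above every hypoxia shRIPOR3 library for EGFR, ERRFI1 and TGFA, while the ERBB2 levels of the hypoxia groups overlapped. Between these groups 31.2% of all genes were called lower in shRIPOR3, and the share of all genes without overlap was not counted.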

How the results depend on the processing

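Of 930 alternative values for the 45 log2 fold changes (9 genes in 5 comparisons), 890 kept direction and side of the threshold, 19 lost a call, 2 gained one and 19 changed sign. The sign changes were all in differences that did not pass the test. The main fit called 3624 genes for the interaction, and 2185 at a threshold of 0.01. With libraries thinned to one total, 1800 genes were called for the interaction at the threshold of 0.05. Of the 9 genes 2 were then called for the interaction and 3 for hypoxia in shRIPOR3. In the thinned libraries the log2 fold changes were -0.001422 for HBEGF and 0.47 for EREG (hypoxia in shRIPOR3), 1.01 for EREG (hairpin in hypoxia), and 0.0592 for AREG and 1.26 for EREG (interaction). With library totals the EREG value for hypoxia in shControl was 0.087. Leaving out each library in turn gave EREG -0.28 to 0.17 for hypoxia in shControl, -0.35 to 0.0070 for hypoxia in shRIPOR3, -0.30 to 0.14 for the hairpin in normoxia and -0.34 to 0.11 for the interaction. For hypoxia in shRIPOR3 it gave ERBB3 -0.11 to 0.27 and HBEGF -0.015 to 0.047, and for the hairpin in normoxia EGFR -0.049 to 0.0046 and ERBB3 -0.049 to 0.33. It left 6 to 8 of the 9 genes called for hypoxia in shControl, 5 in shRIPOR3, 5 for the hairpin in normoxia, 6 to 7 in hypoxia and 3 to 5 for the interaction. The cause of these changes was not tested.

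Same-numbered libraries did not deviate together (median correlation -0.000514 over 18 pairs, 0 over 0.1), so the numbers were not taken as pairs. With the replicate number as a block, 10113, 8664, 7119, 9694 and 3596 genes were called, and 8, 5, 5, 7 and 4 of the 9 genes, with no call of the 9 changed. Counts limit EREG and ERBB3 most.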
